A study of Mus musculus with 10 samples.

Results

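The genes described here are the amino acid transporters that can be recognised by symbol, namely every gene whose symbol starts with Slc1a, Slc3a, Slc6a, Slc7a, Slc36a, Slc38a or Slc43a, except one SLC7 gene that the rule leaves out. There were 62 of them among the 18193 genes with a probe set of their own on the array, and 123 probe sets were annotated to 1 of them alone. For each gene the probe set with the highest mean over all 10 arrays stood for it. Of the 62 symbols, 59 encode membrane carriers or the chains that pair with them, and 3 do not: Slc7a6os, Slc36a1os and Slc6a19os. The families also hold carriers of taurine, creatine, GABA and monoamines, which the symbol rule does not separate from amino acid carriers.

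Cells take up amino acids through carriers with overlapping substrates. Some load the cell with small neutral amino acids such as glutamine, using the sodium gradient, and others exchange those for large neutral amino acids such as leucine. The exchangers of the CD98 complex consist of a glycoprotein heavy chain, Slc3a2, bound to 1 of several light chains of the SLC7 family. Some carriers of the SLC36 and SLC38 families sit in the lysosomal membrane. There they return amino acids to the cytosol or report their presence to the kinase mTORC1.

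The samples were cultured primary keratinocytes, which form the epidermis, from the skin of mice labelled Sgpp1+/+ (WT, 5 samples numbered 1 to 5) and Sgpp1-/- (KO, 5 samples numbered 8, 9, 10, 21 and 23), each on 1 array that is called here by its sample number. Sgpp1 encodes sphingosine-1-phosphate phosphatase 1, and the title of the series names keratinocyte differentiation as its subject. All cells of both groups had grown for 3 to 4 days in EMEM with 0.05 mM calcium and 8% fetal calf serum, a low calcium medium that usually holds such cells in a basal state, and 6 µg of total RNA was labelled for each Affymetrix Mouse Genome 430 2.0 array. The labels give neither the part of Sgpp1 that was disrupted nor the age of the mice, nor on which of the days a sample was harvested, nor whether samples came from separate animals or cultures. The p-values therefore measure only the spread between these arrays. The labels also number the arrays in a series of their own, in which 1 to 5 are WT and 6 to 10 are KO, so array order and genotype cannot be told apart.

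Values are RMA log2 signals, on which a difference of 1 is a 2-fold change. Transcript of Sgpp1 did not fall on the KO arrays: its standing probe set read 7.67 ± 0.84 in WT and 8.82 ± 0.24 in KO (mean ± SD, n = 5 each), with a limma adjusted p of 0.102, and without WT 1 the difference was 0.80 and was called (0.0356). All 3 Sgpp1 probe sets were higher on every KO array than on any WT array, by 1.15, 1.24 and 0.51 in the mean, so every direction given here rests on the labels. Array WT 1 stood apart, with a mean correlation to the other arrays of 0.955 against at least 0.967 for each of them. The immediate early gene Fosb read 7.36 to 9.22 on WT 1, WT 2 and KO 8 and 3.57 to 4.31 on the other 7 arrays. All 12 keratinocyte markers were measured above the range of absent transcripts on every array. Of 15 markers of spinous and cornified cells, the differentiated upper layers, 14 passed the limma test as higher in KO, and their mean level per array was 8.34 to 9.12 in WT and 10.24 to 10.67 in KO. The 8 melanocyte markers averaged 6.30 to 9.35 in WT and 7.62 to 9.18 in KO, all 8 with a positive difference and 0 passing (0 also at an unadjusted p under 0.05). The 9 fibroblast markers averaged 5.30 to 8.67 in WT, highest on WT 3 and WT 4, and 5.58 to 7.10 in KO, with 0 passing. The part of these cell types in any difference reported here was not tested, and in such bulk samples fewer cells of a type and less RNA per cell cannot be told apart.

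Of the 62 transporter symbols, 1 fell and 0 rose in KO at a limma adjusted p under 0.05. The 1 that fell was Slc38a1, a sodium-coupled carrier of glutamine and other small neutral amino acids. Over all genes tested, 0.346% were called lower (63 genes) and 2.30% higher (419). These totals rest on single arrays: with 1 array left out the lower calls numbered from 13, without KO 9, to 107, without KO 23, with 17 without KO 10, 19 without WT 4, 20 without KO 21, 38 without WT 2 and 96 without KO 8. The higher calls numbered 264 without KO 9 and 273 without KO 10, and between 285 and 419 without any other array. At an unadjusted p under 0.05 there were 8 transporter symbols, 6 higher and 2 lower, or 12.9% against 13.0% of all genes. The median log2 difference of the 62 was 0.03 against -0.01 over all genes, and the median size of a difference was 0.17 against 0.15. Differences were positive for 32 and negative for 30. The values on the KO arrays lay wholly below those on the WT arrays for 1 transporter, Slc38a1, and wholly above for 0, where the shares over all genes were 1.02% and 3.36%.

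How firmly the others can be described depends on the interval of each difference. For 55 of the 62 the 95% interval lay within 1 log2 unit of 0, so that a 2-fold change of signal lay outside it. That was a share of 88.7% against 88.3% of all genes. The other 7 intervals reached past 1 unit: those of Slc38a1, Slc36a4, Slc7a4, Slc38a2, Slc38a4, Slc6a20b and Slc1a5. Many of the genes were dim. As a floor, the values of 3 Y-linked genes on the 6 arrays without Y-linked signal were used, which ran from 2.08 to 3.84. By that floor 34 transporter symbols were above it on all 10 arrays, 12 on some arrays and 16 on none. For those 16 the values do not tell a low transcript from an absent one, and a narrow interval bounds the signal and not the transcript. Of the 28 symbols not above the floor on all 10 arrays, 27 had an interval within 1 log2 unit. Of the 34 above it, 28 did, or 82.4% against 85.9% of all genes above the floor on all arrays. Among the 34, 33 encode carriers, 1 was called, as lower, and the median difference was -0.02. Of all 12254 genes above the floor on all arrays, 59 were called lower and 368 higher, with a median of -0.02. The SLC6 family had 10 of the 16 and the SLC7 family 4.

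**Figure D1:**
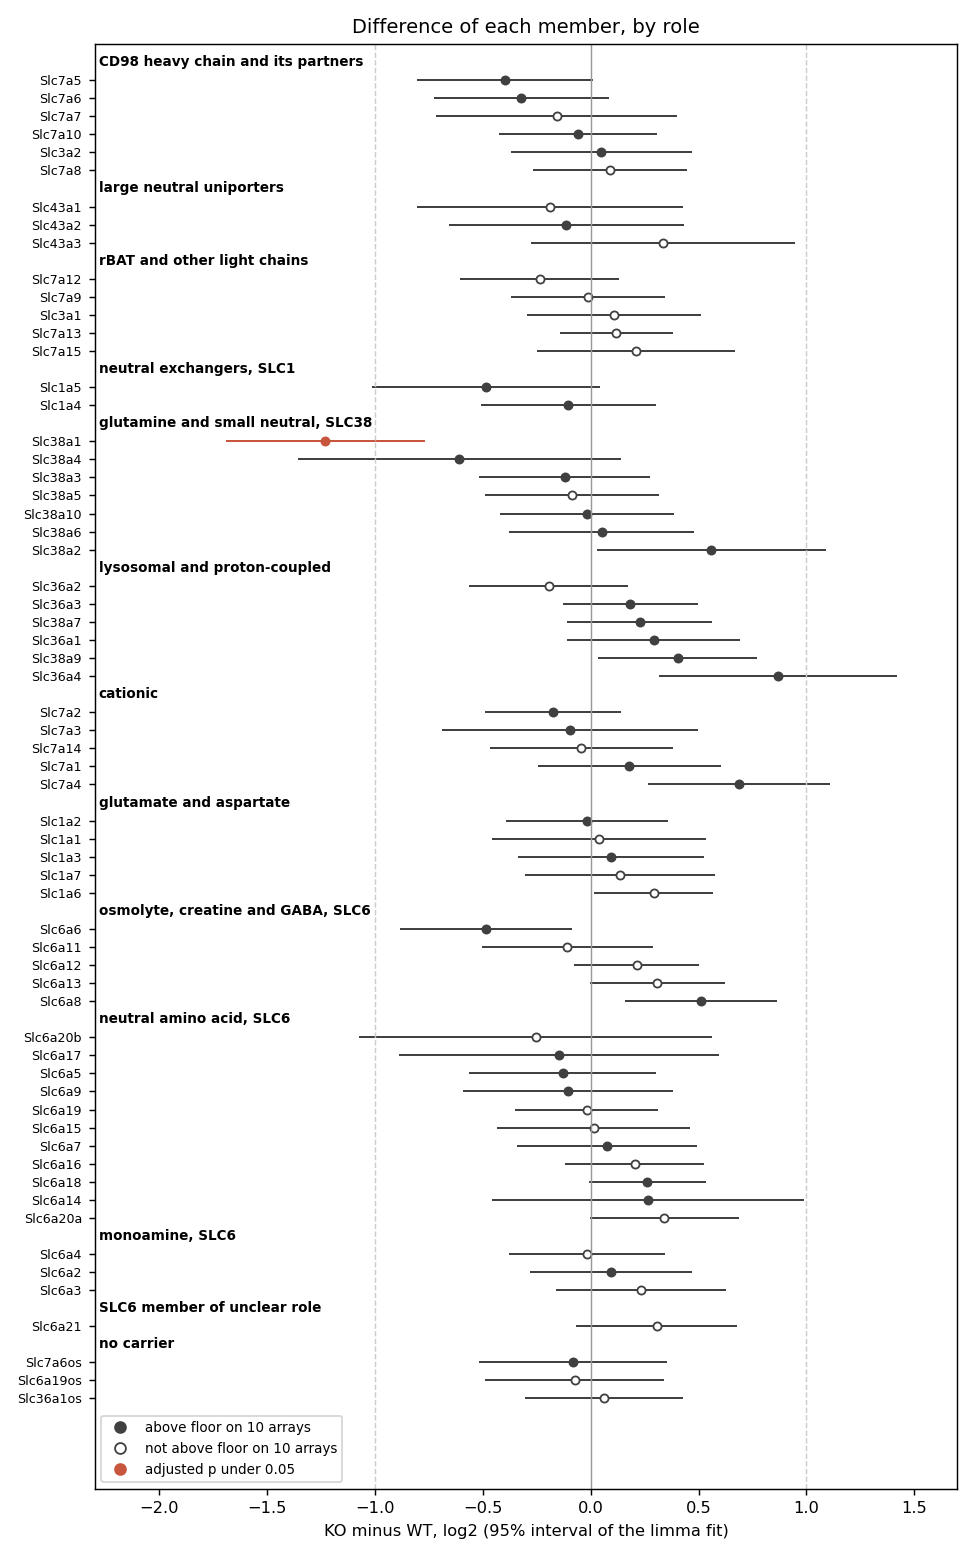
Log2 difference between KO and WT for each of the 62 transporter symbols, grouped by role, with the 95% interval of the limma fit as a line; filled points were above the floor on all 10 arrays, open points were not, and dashed lines mark 1 log2 unit. Slc38a1, in red at -1.23, was the gene past the threshold, and 55 of the 62 intervals lay between the dashed lines.

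Slc38a1 carried the clearest difference among the transporters. In WT its signal was 8.32, 8.49, 7.73, 8.52 and 8.74 on arrays 1 to 5. On the KO arrays 8, 9, 10, 21 and 23 it was 7.30, 6.83, 7.06, 6.82 and 7.64. The groups did not overlap, although the highest KO array, KO 23, lay close under the lowest WT array, WT 3. The means were 8.36 ± 0.38 in WT and 7.13 ± 0.34 in KO (SD, n = 5 each), a difference of -1.23 (SE 0.21, 95% interval -1.69 to -0.77), or 2.35-fold lower in KO. The limma adjusted p was 0.00643, and the exact permutation test gave p = 0.00794 (two-sided), the smallest that 5 against 5 arrays allow.

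A second Slc38a1 probe set gave nearly the same difference. It read 8.17 ± 0.43 in WT and 6.95 ± 0.47 in KO, a difference of -1.22 (95% interval -1.77 to -0.68), with a limma adjusted p of 0.0274 over all 34945 probe sets. On it KO 23 at 7.69 lay just above WT 3 at 7.66, so the groups overlapped. With each array left out in turn the difference of the brighter probe set lay between -1.39 and -1.14 and stayed past the threshold each time. Without WT 1, WT 2 and KO 8, the arrays with high Fosb, it was -1.24 and its limma adjusted p rose to 0.0588. As given above, the spinous and cornified markers separated the same arrays, and their part in the fall of Slc38a1 was not tested.

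In the gene order of the mouse assembly GRCm38.p6, Slc38a1, Slc38a2 and Slc38a4 follow one another with 0 protein-coding genes between them, and the 3 encode related sodium-coupled carriers of small neutral amino acids. Slc38a2 and Slc38a4 were picked for description after their values had been seen. Slc38a2 read 8.93, 9.99, 10.44, 9.90 and 10.15 on WT arrays 1 to 5 and 10.14, 10.45, 10.74, 10.51 and 10.36 on the KO arrays. WT 1 lay far below the rest, and without it the groups still overlapped, since WT 3 at 10.44 was above KO 8 and KO 23. Its difference was 0.56 (95% interval 0.03 to 1.09, limma adjusted p 0.342), of the opposite sign to that of Slc38a1, and its other probe sets differed by 0.36 and 0.39.

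Slc38a4 read 6.23 to 7.09 in WT and 5.33, 5.65, 5.80 and 6.13 on KO arrays 9, 21, 10 and 23, but 7.52 on KO 8, above every WT array. The difference was -0.61 (95% interval -1.35 to 0.14, limma adjusted p 0.523). Without KO 8 the fit gave -0.97 and called it (limma adjusted p 0.0347), so that this one array decided the call. A dimmer Slc38a4 probe set differed by -0.07. The remaining 4 carriers of this role, Slc38a3, Slc38a5, Slc38a6 and Slc38a10, had differences between -0.12 and 0.05, none called, with intervals inside 1 log2 unit. Slc38a5 was above the floor on 0 arrays, so its interval bounds the signal and not the transcript. Slc38a10, the brightest probe set of the SLC38 family by mean, read 10.24 in WT and 10.22 in KO.

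**Figure D2:**
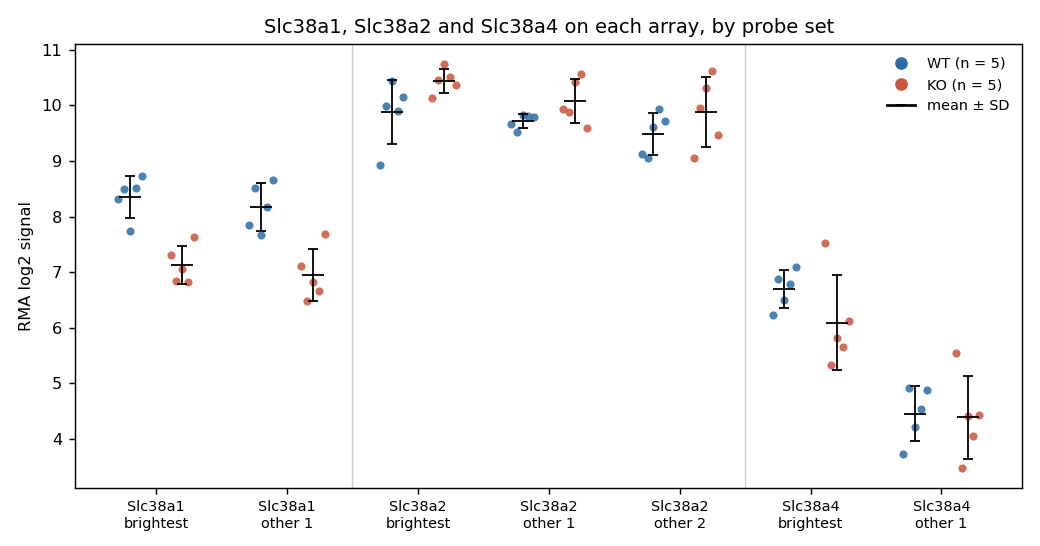
RMA log2 signal of Slc38a1, Slc38a2 and Slc38a4 on each array, for the brightest probe set of each gene and its other probe sets; points are arrays (blue WT, red KO) and black marks give the mean ± SD of 5 arrays. Both Slc38a1 probe sets were lower in KO (by -1.23 and -1.22), Slc38a2 was not, and for Slc38a4 the array KO 8 at 7.52 lay above the others.

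None of the 6 genes of the CD98 complex passed the threshold. The heavy chain Slc3a2, needed to bring each light chain to the plasma membrane, read 9.19 to 10.06 in WT and 9.55 to 10.29 in KO. The ranges overlapped almost fully, with a difference of 0.05 (95% interval -0.37 to 0.47, limma adjusted p 0.965), and its sign turned when WT 1 was left out (-0.10). Slc7a5, the light chain that exchanges leucine and other large neutral amino acids for glutamine, read 9.32, 9.90, 9.57, 9.38 and 9.5 on the WT arrays. On KO arrays 8, 9, 10, 21 and 23 it read 9.62, 8.86, 9.39, 9.07 and 8.75. KO 8 and KO 10 lay among the WT arrays and the other 3 below them, and the difference of -0.40 (95% interval -0.80 to 0.01, limma adjusted p 0.401) was not called.

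Slc7a6, a light chain that exchanges cationic for neutral amino acids, differed by -0.32 (95% interval -0.72 to 0.08), and its second probe set by -0.47, neither past the threshold. Slc7a10, which carries small neutral amino acids, was hardly above the floor and differed by -0.06. The remaining light chains among these 6 genes gave no usable signal. Slc7a7 was above the floor on 1 array and Slc7a8 on 0, with differences of -0.16 and 0.09. Of the 6 genes 4 were above the floor on all 10 arrays, and the median difference of the 6 was -0.11.

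The exchangers Slc1a4 and Slc1a5 trade small neutral amino acids such as alanine and serine across the membrane and are the neutral branch of the SLC1 family. Slc1a4 read 9.51 ± 0.28 in WT and 9.41 ± 0.33 in KO, a difference of -0.10 (95% interval -0.51 to 0.30, limma adjusted p 0.908). Its other probe sets differed by 0.02 and -0.04. Slc1a5 read 5.64, 6.68, 6.59, 6.61 and 6.87 on the WT arrays and 5.65, 5.55, 6.40, 6.08 and 6.28 on the KO arrays. WT 1 lay nearly 1 unit under the other WT arrays and within the KO range, while the other WT arrays were above all KO arrays. With all arrays the difference was -0.48 (95% interval -1.01 to 0.04, limma adjusted p 0.441), and leaving out 1 array at a time moved it between -0.69 and -0.37 without a call. Slc43a2, a facilitated carrier of large neutral amino acids, read 9.78 ± 0.46 in WT and 9.66 ± 0.43 in KO. The other SLC43 genes were dim. Slc43a1 was above the floor on 1 array and Slc43a3, known as a carrier of purine bases, on 3.

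**Figure D3:**
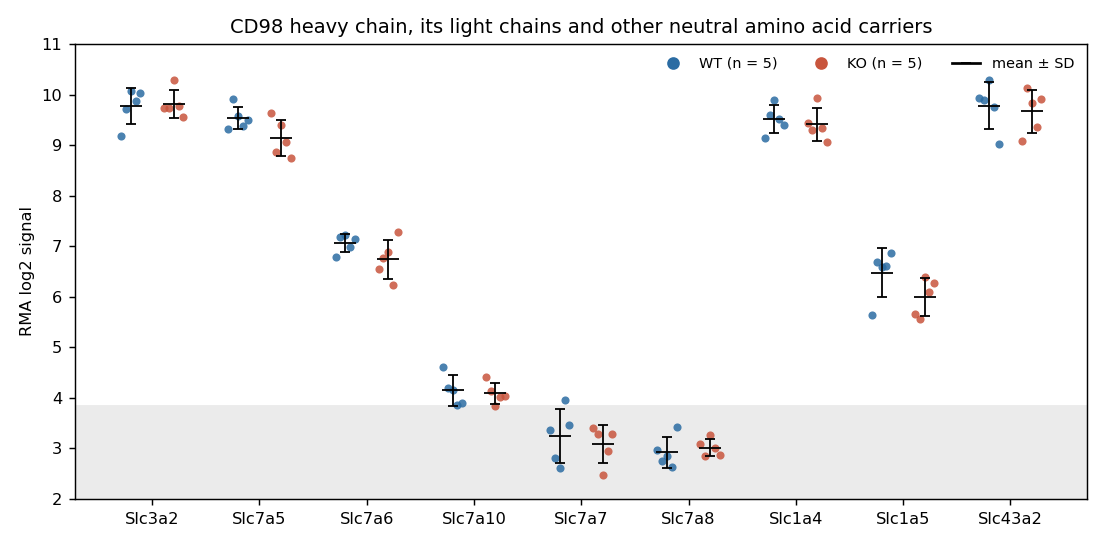
RMA log2 signal on each array for the CD98 heavy chain Slc3a2, its light chains Slc7a5, Slc7a6, Slc7a10, Slc7a7 and Slc7a8, and the neutral carriers Slc1a4, Slc1a5 and Slc43a2; points are arrays, black marks the mean ± SD of 5 arrays, and the grey band ends at the floor of 3.84. WT and KO arrays overlap for all 9 genes, and WT 1 at 5.64 stands under the other WT arrays for Slc1a5.

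Slc1a4 is a classic target of the amino acid response, in which ATF4 binds the sequence TGATGNAA when amino acids are short. Its promoter is shown because it holds this sequence close to the start of transcription. The window is chr11:20332664-20332963 on the minus strand (RefSeq, GRCm38.p6), with the match in capitals, read on the opposite strand and starting at position -4:
Slc1a4: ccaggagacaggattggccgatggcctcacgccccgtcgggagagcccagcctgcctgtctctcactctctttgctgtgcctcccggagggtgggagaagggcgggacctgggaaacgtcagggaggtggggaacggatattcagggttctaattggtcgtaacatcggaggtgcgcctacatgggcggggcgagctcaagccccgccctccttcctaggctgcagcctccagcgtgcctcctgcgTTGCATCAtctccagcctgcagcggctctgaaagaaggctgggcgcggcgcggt
Both strands were searched for the motif. It was present in 4 of the 66 transporter promoters searched, belonging to Slc1a4, Slc6a21 and Slc7a7, and in 3.97% of all 32851 promoters in the table. The transporter search set a single chromosome aside, and the share over all promoters did not. The Slc7a7 windows overlap and share a match, so the 4 promoters do not all hold separate sites. A match is a description of letters and not of binding.

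The carriers of the lysosomal and proton-coupled group had the highest median difference among the roles with more than 1 gene, 0.26 over 6 genes, with 0 called and 5 of 6 positive. Slc36a4, a carrier of proline and tryptophan, read 4.99, 6.34, 6.41, 6.17 and 5.72 on WT arrays 1 to 5. On the KO arrays it read 6.69, 6.97, 6.87, 6.40 and 7.04. WT 1 was lowest by a wide margin, and KO 21 at 6.40 was the KO array that reached into the WT range, just under WT 3 at 6.41. The difference was 0.87 (SE 0.25, 95% interval 0.32 to 1.42), or 1.82-fold, with a limma adjusted p of 0.112, and without WT 1 it was 0.63. The gene has 1 probe set.

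Slc38a9, a lysosomal carrier that signals arginine to mTORC1, had 7 probe sets. The brightest read 6.65 ± 0.29 in WT and 7.05 ± 0.22 in KO, a difference of 0.40 (95% interval 0.04 to 0.77, limma adjusted p 0.311). All 7 differences were positive, from 0.02 to 0.48, and 0 passed over all probe sets. On 1 of them, at 0.48, the WT and KO arrays did not overlap. These probe sets measure the same RNA samples and are not independent.

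Slc36a1, the founding lysosomal proton-coupled carrier of small amino acids, read 6.36 ± 0.36 in WT and 6.65 ± 0.21 in KO (difference 0.29, 95% interval -0.11 to 0.69). Slc38a7, which exports glutamine from lysosomes, differed by 0.23 and Slc36a3 by 0.18, neither called. Slc36a2, above the floor on 1 array, differed by -0.20. Factors of the TFEB family, which control lysosomal genes, bind the E-box CACGTG. The Slc36a1 promoter is shown because it holds this sequence more than once, in capitals, starting at positions -31 and -3 (chr11:55204090-55204389, plus strand, RefSeq, GRCm38.p6):
Slc36a1: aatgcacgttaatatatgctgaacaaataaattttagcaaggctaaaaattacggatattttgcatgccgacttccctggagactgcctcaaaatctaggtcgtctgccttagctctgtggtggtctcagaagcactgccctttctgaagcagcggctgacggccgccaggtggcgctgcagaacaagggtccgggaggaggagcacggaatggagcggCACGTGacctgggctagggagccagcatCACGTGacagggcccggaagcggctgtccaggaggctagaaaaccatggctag
The E-box, which reads the same on both strands, occurred in 9 of the 66 transporter promoters searched and in 7.15% of all promoters in the table. Among the genes of the lysosomal and proton-coupled group Slc38a7 held it too. The other matches lay outside that group, in promoters of Slc1a6, Slc1a7, Slc38a5, Slc43a1, Slc6a16, Slc6a3 and Slc7a14.

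**Figure D4:**
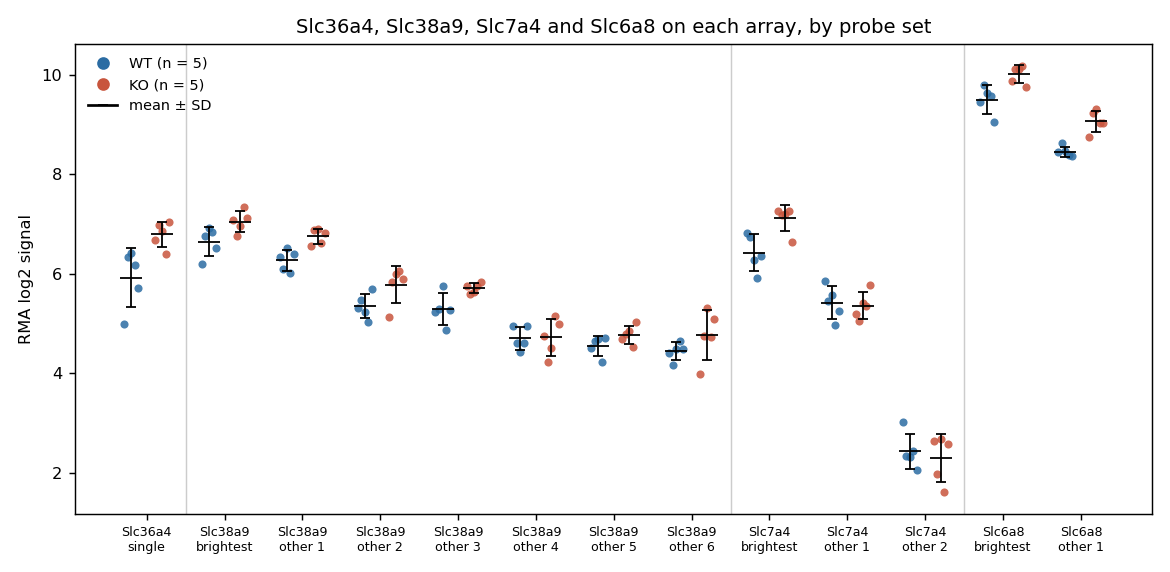
RMA log2 signal on each array for every probe set of Slc36a4, Slc38a9, Slc7a4 and Slc6a8; points are arrays (blue WT, red KO) and black marks give the mean ± SD of 5 arrays. The brightest probe sets differed by 0.87, 0.40, 0.69 and 0.51, the other Slc7a4 probe sets by -0.06 and -0.13, and the second Slc6a8 probe set by 0.61 with no overlap between groups.

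Among the cationic carriers, Slc7a1, the main route for arginine and lysine into most cells, read 10.84 ± 0.27 in WT and 11.02 ± 0.36 in KO. The difference was 0.18 (95% interval -0.24 to 0.60) and was not called. Slc7a2 differed by -0.18 and Slc7a3 by -0.10, also with intervals inside 1 log2 unit. Slc7a4, a relative of these carriers, came nearest to the threshold of all uncalled transporters by adjusted p. It read 6.82, 6.75, 6.28, 5.92 and 6.37 on the WT arrays and 7.28, 7.19, 7.21, 7.26 and 6.65 on the KO arrays. KO 23 lay within the WT range and the other 4 KO arrays above it. The difference was 0.69 (95% interval 0.27 to 1.11, limma adjusted p 0.0934), and without KO 23 it was 0.81 with a limma adjusted p of 0.0422. The other Slc7a4 probe sets, 1 of them below the floor, differed by -0.06 and -0.13, so the probe sets of this gene disagreed.

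The 5 glutamate and aspartate carriers of the SLC1 family were not called, with differences from -0.02 to 0.29. Slc1a3, the glial glutamate carrier and the brightest probe set of the 5 by mean, read 5.25 ± 0.44 in WT and 5.34 ± 0.15 in KO. Its other probe sets were dimmer, with means from 2.23 to 4.08, and the brightest of those was above the floor on 8 arrays. Slc1a6 had the smallest p of this group at a difference of 0.29 (limma adjusted p 0.330), but it was below the floor on all 10 arrays.

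In the SLC6 family 0 of 21 genes were called. Slc6a8, the creatine carrier, read 9.45, 9.80, 9.64, 9.59 and 9.05 in WT and between 9.76 and 10.17 in KO. WT 2 at 9.80 overlapped the lowest KO array, KO 23. The difference was 0.51 (95% interval 0.16 to 0.86, limma adjusted p 0.146). On its second probe set, at 8.46 ± 0.10 in WT and 9.08 ± 0.21 in KO, the groups did not overlap and the difference of 0.61 passed over all probe sets with a limma adjusted p of 0.0418. Whether Slc6a8 was called thus depended on the probe set.

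The taurine carrier Slc6a6, picked after its values had been seen, was the second gene lower at an unadjusted p under 0.05. It read 9.56 to 10.06 in WT and 8.92 to 9.82 in KO, where KO 8 was highest. The difference was -0.48 (95% interval -0.88 to -0.09, limma adjusted p 0.239), and its other probe sets differed by -0.07, -0.24 and -0.48. The glycine carrier Slc6a9 read 8.73 in WT and 8.63 in KO, and without WT 2, which stood above the rest at 9.43, the sign turned to 0.07. Over the 11 neutral amino acid carriers of this family 0 were called, with differences from -0.26 to 0.34. Of the 3 monoamine carriers Slc6a2, for noradrenaline, was above the floor on all arrays by its brightest probe set, at 4.38 in WT and 4.47 in KO. Its other probe sets were above the floor on 7, 7 and 0 arrays. Slc6a3 and Slc6a4 were below the floor on all arrays.

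The heavy chain rBAT, Slc3a1, and the light chains grouped with it are carriers of kidney and gut and were dim here. Of these 5 genes 0 were above the floor on all arrays and 0 were called, with differences from -0.24 to 0.21. The 3 symbols that encode no carrier differed by -0.08, -0.07 and 0.06. Among the 61 probe sets that did not stand for their gene, 1 was called lower, that of Slc38a1, and 1 higher, that of Slc6a8. In the fit over all probe sets, 615 of the 34945 tested were called, higher or lower.

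The genes around the transporters were read from the same fit in 5 lists. Over all genes 2.30% were called higher, 0.346% were called lower, and 13.0% had an unadjusted p under 0.05. The KO arrays lay wholly above the WT arrays for 3.36% of all genes. The amino acid response list, ATF4 with its partners and targets and the upstream eIF2α kinases and their regulators, had 28 measured genes, of which 0 were called (4 at an unadjusted p under 0.05), with a median log2 difference of -0.01. The 2 with the smallest p were Herpud1, a ubiquitin-domain protein of the endoplasmic reticulum, at 0.52 (limma adjusted p 0.196, and 0.63 with 0.0473 over all probe sets on its second probe set) and the transcription factor Cebpb at 0.36 (0.229). The list of aminoacyl-tRNA synthetases, which charge tRNA, held 22 genes with the accessory proteins of their complex Aimp1, Aimp2 and Eef1e1, and had 0 called (1 at an unadjusted p under 0.05) and a median of -0.10. Tars was at -0.40 (limma adjusted p 0.22) and Mars1 at -0.31 (0.430).

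The amino acid sensing list, 42 genes of mTORC1, of the proteins that report amino acids to it, of its inhibitors and of its outputs, had 0 called (7 at an unadjusted p under 0.05) and a median of 0.08. Rragd, a Rag GTPase that holds mTORC1 at the lysosome, read 6.64 ± 0.41 in WT and 7.24 ± 0.18 in KO (difference 0.60, limma adjusted p 0.151). Ulk1, the kinase that starts autophagy when mTORC1 is off, differed by 0.45 (limma adjusted p 0.153), and its KO arrays, at 8.17 to 8.49, lay above its WT arrays, at 7.42 to 8.02. On the second Ulk1 probe set, at 0.23 (limma adjusted p 0.780 over all probe sets), the groups overlapped.

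The enzyme list held 53 genes, most of them of amino acid metabolism and some outside it, such as Odc1, Sat1, Ckb and Dpysl2. Of the 53, 2 rose and 1 fell (11 had an unadjusted p under 0.05), with a median of -0.06. Hal, the histidase that turns histidine into urocanic acid in the upper epidermis, read 5.26, 5.86, 5.53, 4.52 and 4.86 in WT and 7.92, 6.89, 6.50, 6.50 and 6.99 in KO. Every KO array was above every WT array, KO 8 the highest, and Hal rose by 1.75 (SE 0.30), or 3.37-fold, with a limma adjusted p of 0.00634. Sat1, which acetylates polyamines for export or breakdown, rose from 9.93 ± 0.47 to 11.12 ± 0.23, or 2.29-fold (limma adjusted p 0.00839), again with no overlap. The mitochondrial serine hydroxymethyltransferase gene Shmt2 fell by 0.66, from 10.17 ± 0.15 to 9.51 ± 0.20 (limma adjusted p 0.0219). That call was lost, at limma adjusted p-values up to 0.0796, when any of KO 9, KO 10, KO 21, WT 2 or WT 4 was left out, and the other Shmt2 probe sets, at -0.26, -0.48 and -0.52, did not pass. Leaving out WT 1 brought the number of genes called in this list to 5.

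The last list held 27 genes outside the 7 symbol families, namely carriers of amino acids, peptides or other solutes and relatives or partners of such carriers. Of these, 3 rose and 0 fell (5 had an unadjusted p under 0.05), with a median of 0.13. Ctns, the cystinosin that exports cystine from lysosomes, read 6.48, 6.89, 6.85, 6.71 and 6.79 in WT and 7.35, 7.97, 8.06, 7.28 and 7.86 in KO. The groups did not overlap, and Ctns rose by 0.96, or 1.94-fold (limma adjusted p 0.0105), and stayed past the threshold with each array left out. Slc15a1, the proton-coupled carrier of di- and tripeptides, rose from 5.62 ± 0.86 to 7.11 ± 0.32, or 2.81-fold (limma adjusted p 0.0389). WT 1 and WT 4, at 4.60 and 4.80, were far below the other WT arrays, and the call was lost without any of WT 1, WT 4, KO 9, KO 10, KO 21 or KO 23, at limma adjusted p-values up to 0.124. Slc66a2, of the PQ-loop family to which cystinosin also belongs, rose from 6.77 ± 0.32 to 7.74 ± 0.38, or 1.97-fold (limma adjusted p 0.0234). Its call was lost without KO 8, KO 9, KO 10 or WT 4, at limma adjusted p-values up to 0.0753, and its other probe sets, at 0.69, -0.01 and 0.53, did not pass. Without WT 4, KO 9 or KO 10, Ctns was the 1 gene of this list still called.

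**Figure D5:**
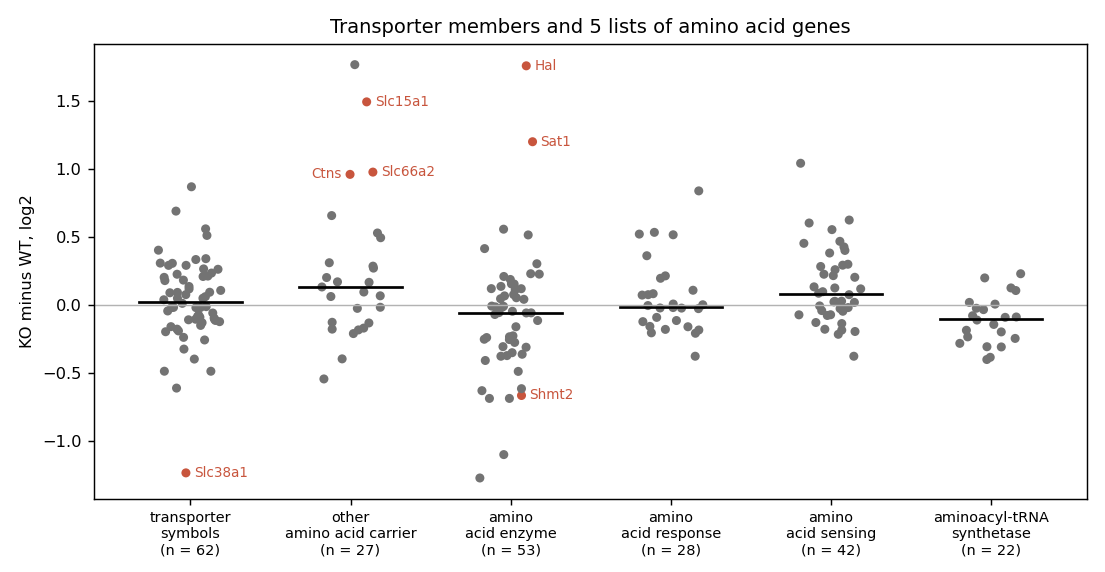
Log2 difference between KO and WT for each of the 62 transporter symbols and for each gene of 5 lists of amino acid genes; each point is a gene, red and named where the limma adjusted p was under 0.05, and black lines are medians. The medians ran from -0.10 for the tRNA synthetase list to 0.13 for the other carriers, and Slc38a1 is the called gene among the transporters.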

How the data were processed

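The deposited values are log2 signals per probe set. They come from RMA, according to the submitters' processing notes, whose version is not given in the sources used here. RMA brings the arrays to similar distributions (array medians 5.02 to 5.17), which limits what can be seen of a shift common to most genes, and it compresses differences of dim genes. All 10 columns were used and 0 left out. Of 45101 probe sets, 34945 were annotated to exactly 1 gene and 932 to several. The brightest by mean stood for each of 18193 genes, and levels of different genes were not compared, since probe sets differ in brightness.

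Differences (KO minus WT) were fitted across all genes with limma 3.58.1 (lmFit and eBayes, two-sided) in R 4.3.3. Benjamini-Hochberg adjustment ran over all genes at a threshold of 0.05, and intervals and SE come from that fit. Single genes were also put to an exact permutation test over 252 assignments. The fit was tested on simulated data. No sample number occurs in both groups, so nothing was paired. Having 5 arrays in each group limits precision.

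The transporters and lists were chosen with earlier results of these data known. The genes named are those called or without overlap, the brightest and the smallest p in each family and role, the CD98 chains, up to 6 called genes per list (or the 2 with the smallest p) and Sgpp1, and any other gene named is marked or falls under a count. Promoters came from RefSeq (GRCm38.p6), for 45 of the 62 symbols. Alternatives covered the choice of probe set, filtering, normalisation, array weights, eBayes settings, a Y-linked covariate and arrays left out.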

Additional observations from a re-analysis of the deposited data

Results flagged for a closer look

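Among 80 groups of 5 arrays, the 5 WT or the 5 KO values of each named gene, 7 held an array whose distance from its nearest neighbour took up an unusually large part of the group's range. Chance alone marks about 1 in 20 groups. WT 1 was the array in 4 of the 7. It read 5.64 for Slc1a5, where the other WT arrays read 6.59 to 6.87, and 9.12 for Sat1, where the highest read 10.32 and all were above it by more than the spread among themselves. WT 1 was high for Slc6a3, at 3.12 against 2.43 to 2.60, and for Slc7a12, at 3.15 against 2.32 to 2.43, both genes being below the floor on all arrays. WT 2 was high for the glycine carrier Slc6a9, at 9.43 against 8.37 to 8.67. For Slc7a4, KO 23 was low at 6.65 against 7.19 to 7.27 on the other KO arrays. For Tars, the threonyl-tRNA synthetase, KO 8 was high at 9.80 against 9.20 to 9.35.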

How the results depend on the processing

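Slc38a1 was called lower in every alternative fit except that without WT 1, WT 2 and KO 8, where its difference was -1.24 and the call was lost (limma adjusted p 0.0588, against 0.00199 to 0.0274 in the others). Quantile normalisation moved the lower calls over all genes from 63 to 119, and the higher from 419 to 450. With array weights, which gave WT 1 the lowest weight of 0.23, the calls over all genes grew from 482 to 1438. Under them 3 transporters were higher (Slc36a4, Slc6a8 and Slc7a4) and 2 lower (Slc38a1 and Slc6a6). The array weights also gave calls for 7 genes of the enzyme list, 2 response genes and 4 sensing genes. With the median of a gene's probe sets, 1 transporter, Slc6a8, was higher. With dim genes left out, 25 transporters remained, with a median of -0.0825. With 1 array left out at a time, transporters called higher numbered 0 to 1 (Slc7a4 without KO 23) and lower 1 to 2 (Slc38a4 joining without KO 8). In those fits called genes of the enzyme list numbered 2 to 5, sensing genes 0 to 1 (Rps6kb2 without WT 1) and other carriers 1 to 4. The sign turned for genes called neither with all arrays nor in the fit concerned. With the median of probe sets it did so for Slc1a4 (0.0199) and Slc7a4 (-0.0581). With array weights it did so for Slc3a1 (-0.0160), Slc3a2 (-0.0175) and Slc7a10 (0.0248), and without WT 1, WT 2 and KO 8 for Slc3a1 (-0.13), Slc3a2 (-0.14), Slc43a2 (0.12) and Slc7a10 (0.0336). With 1 array left out the range crossed 0 for Slc1a3 (-0.0235 to 0.25), Slc38a10 (-0.14 to 0.10), Slc3a1 (-0.0452 to 0.21), Slc3a2 (-0.10 to 0.12), Slc43a2 (-0.30 to 0.0319), Slc6a9 (-0.21 to 0.0701), Slc7a10 (-0.14 to 0.0573) and Slc7a7 (-0.32 to 0.0200). The cause of these changes was not tested. Of 828 fits of named genes under alternatives, 775 kept direction and side of the threshold, 20 lost a call, 8 gained one and 25 changed sign. No paired analysis was possible because the groups share no sample number. Leaving out the 3 symbols that encode no carrier, an alternative chosen after seeing the data, gave a median of 0.04 over 59. Signals at the floor limit what can be said of 16 transporters.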

Other observations

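Several genes of the amino acid lists had large differences that did not pass the limma test, and they were picked after their values had been seen. Slc15a2, a carrier of di- and tripeptides, read 3.62 to 9.04 in WT and 6.96 to 8.68 in KO, a difference of 1.76 (limma adjusted p 0.410), with WT 3 above every KO array. Fnip2, a partner of folliculin in the control of mTORC1, differed by 1.04 (limma adjusted p 0.212). Bcat1, the cytosolic branched-chain aminotransferase, differed by -1.27 (limma adjusted p 0.222), with WT 1 at 6.24 within the KO range of 6.15 to 7.17. Bcat1 was highest on WT 3 and WT 4 (8.82 and 9.12), where the mean of the 9 fibroblast markers was also highest (8.67 and 8.20), and their part in it was not tested. The serine synthesis gene Phgdh differed by -0.63 (limma adjusted p 0.244), and KO 8 at 10.80 lay among the WT arrays while the other KO arrays read 9.57 to 9.80.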
